A study of Mus musculus with 745 samples.

Results

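The adhesion G protein-coupled receptors described here were Adgrf5, Adgrl4, Adgrg1, Adgrl2, Adgra2 and Adgrg6, taken by symbol as 6 of the 20607 rows of a table of read counts from single mouse brain endothelial cells. The table held 16 other adhesion receptor genes of 24 looked for, which makes 22 in all. The cells were primary endothelial cells from the brains of 3-month-old mice, freed with a neural tissue dissociation kit and sorted by FACS with gate markers not given in the sources used here. All carried the label young, with no treatment, genotype or second age among them, and cell titles began with Young1 (30.2% of the 745 cells), Young2 (34.6%) or AY_Y3 (35.2%). These 3 title prefixes are called sets here. What a set stands for (an animal, pooled animals or a plate) is not given, so each was taken as 1 sample, and p-values measure only the spread between sets, which may be technical.

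Adhesion receptors carry a long extracellular part and a membrane-spanning part joined at the GAIN domain, where most of them cut themselves during folding. The stretch next to the cut can act as a tethered agonist when a ligand on a neighbouring cell or in the matrix pulls the outer part away, and signalling then runs through G proteins. In brain endothelium Adgra2 (GPR124) is the best known member: with the membrane anchor Reck it helps Wnt7a and Wnt7b reach Frizzled receptors, which vessels need to grow into the mouse brain and form its barrier.

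The other members have different known partners. Adgrl2 (latrophilin-2) binds teneurins and FLRT proteins at cell contacts. Adgrg1 (GPR56) binds collagen III and transglutaminase 2 and is known for its part in brain development. Adgrg6 (GPR126) binds collagen IV, laminin and the prion protein and is required for myelination by Schwann cells. Adgrf5 (GPR116) limits surfactant in the mouse lung. Adgrl4 (ELTD1), a receptor with no settled ligand, is known from the endothelium of growing and tumour vessels.

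In the GENCODE M21 annotation of GRCm38, Adgrf5 lies at chr17:43360451-43459557 on the plus strand, Adgrl4 at chr3:151437887-151545086 on the plus strand, and Adgrl2 at chr3:148815583-148990555 on the minus strand. Adgrg1 lies at chr8:94974751-95014217 and Adgra2 at chr8:27085583-27123436, both on the plus strand, and Adgrg6 at chr10:14402583-14545659 on the minus strand. The exons of Adgra2 share 73 bases with those of Brf2 on the other strand. Those of Adgrg6 share 441 bases with Gm46212 on the other strand. Whether the counting used strand is not given, so reads from such stretches cannot be told apart.

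Promoters of the 3 members whose levels differed most between vessel segments in the results that follow are shown for context. They run from 250 bases before to 50 after the start in RefSeq (GRCm38.p6), 5′ to 3′ on the strand of the gene, with capitals marking AGGAAG, a core recognised by ETS factors of endothelium, on either strand. Adgrl2 is from chr3:148954586-148954885 (minus), Adgrl4 from chr3:151437632-151437931 (plus) and Adgrg6 from chr10:14544987-14545286 (minus). The Adgrl2 window lies well inside the GENCODE span of its gene, whose 5′ end is at 148990555. It is therefore the window of a downstream start and may not be the promoter used. That of Adgrg6 also lies inside, near a 5′ end at 14545659.
Adgrl2: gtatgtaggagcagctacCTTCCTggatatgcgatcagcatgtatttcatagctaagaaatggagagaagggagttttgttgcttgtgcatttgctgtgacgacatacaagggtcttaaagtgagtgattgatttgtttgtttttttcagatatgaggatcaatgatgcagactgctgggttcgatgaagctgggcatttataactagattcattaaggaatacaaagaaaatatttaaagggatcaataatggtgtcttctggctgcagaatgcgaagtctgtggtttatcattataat
Adgrl4: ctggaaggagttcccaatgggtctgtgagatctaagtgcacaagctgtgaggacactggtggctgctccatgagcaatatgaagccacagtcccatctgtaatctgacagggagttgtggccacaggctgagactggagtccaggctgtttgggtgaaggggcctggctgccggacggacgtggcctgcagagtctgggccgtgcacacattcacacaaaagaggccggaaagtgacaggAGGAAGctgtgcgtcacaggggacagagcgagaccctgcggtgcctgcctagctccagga
Adgrg6: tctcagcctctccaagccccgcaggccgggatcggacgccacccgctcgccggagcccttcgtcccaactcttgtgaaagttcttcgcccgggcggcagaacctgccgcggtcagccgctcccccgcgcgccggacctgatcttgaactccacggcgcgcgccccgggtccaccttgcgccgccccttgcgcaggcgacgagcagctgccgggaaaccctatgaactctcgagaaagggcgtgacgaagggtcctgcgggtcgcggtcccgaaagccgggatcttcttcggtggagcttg
Adgrl4 holds 1 match as spelt and Adgrl2 holds 1 on the other strand, as CTTCCT, whereas the Adgrg6 window holds none. Of all 32851 promoters of this length, 35.4% hold the motif. AGGTCA, the core recognised by nuclear receptors such as the venous factor Nr2f2, is in none of the 3 windows and in 16.3% of all promoters. A match describes these letters only and is not a bound site.

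Counts per cell ran from 52819 to 2421434, with medians of 757949, 713031 and 411397 in Young1, Young2 and AY_Y3. A cluster of 25 wells with 10 of 10 pericyte markers raised (8, 9 and 8 wells by set) was left out, which kept 720 endothelial cells, 30.1% of them from Young1, 34.6% from Young2 and 35.3% from AY_Y3. A list of 10 endothelial markers, among them Cldn5, Pecam1 and Cdh5, summed to means of 26169 to 27394 CPM in the classes used here, against 16335 CPM in the wells left out. The counts carry no molecular identifiers, so intervals and floors cover counting error only.

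The 6 receptors fell into 3 that most cells expressed and 3 that a minority did. Adgrf5 had a count in 92.6% of endothelial cells of Young1, 97.6% of Young2 and 96.5% of AY_Y3. Adgrl4 had one in 87.1%, 91.97% and 94.1% of cells in the same order of sets. Adgrg1 followed at 74.7%, 69.9% and 79.5%. The other 3 members were found in fewer than 1 cell in 3 in every set.

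Adgrl2 was detected in 22.6% of Young1, 32.1% of Young2 and 29.9% of AY_Y3 cells. Adgra2 was detected in 14.7%, 20.5% and 18.9%. Adgrg6 was the rarest, with 2 cells in Young1 (0.922%), 13 in Young2 (5.22%) and 6 in AY_Y3 (2.36%). The exact Clopper-Pearson 95% intervals of Adgrg6 were 0.112 to 3.29% in Young1, 2.81 to 8.76% in Young2 and 0.872 to 5.07% in AY_Y3, so that of Young2 overlapped the others. Thinning every cell to 50000 counts left the order of detection as it was, at 90.3 ± 5.61% for Adgrf5, 85.1 ± 5.91% for Adgrl4, 70.1 ± 5.13% for Adgrg1, 22.02 ± 6.15% for Adgrl2, 12.9 ± 3.31% for Adgra2 and 1.64 ± 1.36% for Adgrg6 (mean ± SD, n = 3 sets).

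Between sets the mean levels of the common members differed in size. As mean CPM per cell (counts scaled to a common library total), Adgrf5 stood at 881 in Young1, 1142 in Young2 and 875 in AY_Y3. Adgrl4 stood at 609, 1006 and 907 CPM in the same order, with Young1 the lowest. Adgrg1 stayed within 299 to 335 CPM over the sets and Adgrl2 within 70.8 to 73.5 CPM, the narrowest range of the 6. Adgra2 stood at 16.6, 31.9 and 33.3 CPM. Adgrg6 stood at 4.12, 11.7 and 0.298 CPM, a spread wider than its mean of 5.36 ± 5.78 CPM (SD, n = 3 sets).

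Per kilobase of merged exon, which allows genes to be compared, the order of mean levels was Adgrl4, Adgrf5, Adgrg1, Adgrl2, Adgra2 and Adgrg6. Adgrl4 had 204.7 ± 50.3 CPM per kb, above Adgrf5 with 111.3 ± 17.6 CPM per kb and Adgrg1 with 81.6 ± 4.73 CPM per kb (SD, n = 3 sets). Adgrl2 had 11.2 ± 0.208, Adgra2 4.72 ± 1.602 and Adgrg6 0.742 ± 0.801 CPM per kb. The 3 sets of each gene did not overlap with those of the next in this order.

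**Figure D1:**
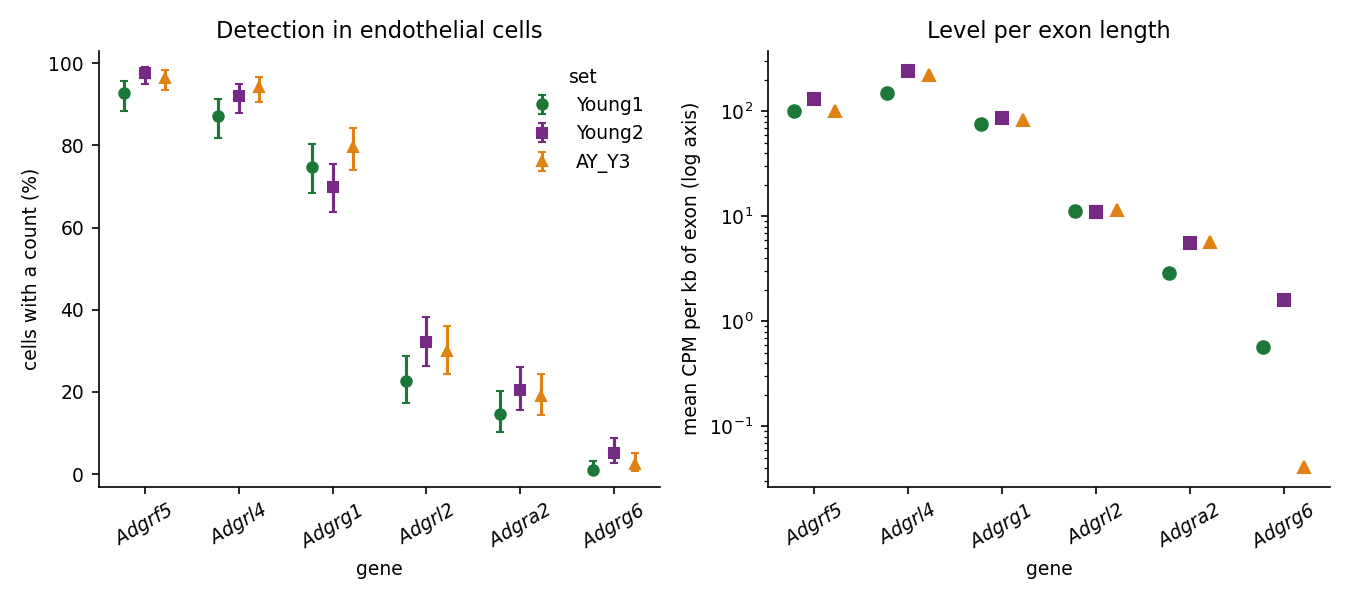
Left, the share of endothelial cells with a count of each receptor in Young1, Young2 and AY_Y3 (points) with exact 95% intervals (bars); right, the mean CPM per kb of exon on a log axis. Adgrf5, Adgrl4 and Adgrg1 lie at 69.9% of cells or more in every set, and the other 3 at 32.1% or less.

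Within a set, levels varied widely from cell to cell. Over all 720 cells Adgrf5 had a median of 741 CPM with quartiles of 254.7 and 1323 CPM. Adgrl4 had a median of 590 CPM (quartiles 116.1 and 1244 CPM). The median of Adgrg1 was 189.8 CPM, with a lower quartile of 0. Medians of Adgrl2, Adgra2 and Adgrg6 were 0. Among cells with an Adgrl2 count the median was 132.3 CPM, which is below the median of 335 CPM in the 538 cells with Adgrg1.

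Of the other 16 adhesion receptor genes, 3 had a count in at least 5% of endothelial cells. Adgre5 (CD97, a receptor known from leukocytes that binds CD55) was found in 52.3 ± 6.55% of cells, at 65.7 ± 10.1 CPM per kb. Adgrl3, another latrophilin, was found in 11.5 ± 0.960% and Adgra3, a relative of Adgra2, in 8.63 ± 0.873% (SD, n = 3 sets). Adgre5 therefore stood between Adgrg1 and Adgrl2 in level per kb.

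Cells were then placed along the vessel tree by marker pairs. Bmx and Gkn3 gave an arterial score, Nr2f2 and Il1r1 a venous score and Cxcl12 and Rgcc a capillary score, each gene on the log2(CPM + 1) scale and scaled within its set. A cell took the class of its highest score where that was above 0 and at least 0.5 above the next. Of the 720 cells 15.4% were arterial-marker cells (22, 48 and 41 cells in Young1, Young2 and AY_Y3), 18.3% venous-marker cells (39, 45 and 48 cells) and 37.2% capillary-marker cells (86 and 76 cells and, in AY_Y3, 41.7% of the set). The other 29.03% lay between classes. The classes are ranges of a score and not cell types, and 43 cells lay within 0.1 of the 0.5 margin.

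Counts were summed per set and class and compared with edgeR's quasi-likelihood test with the set as a block, over 9159 genes with Benjamini-Hochberg adjustment. Of the 6 receptors 5 passed the filter on low counts. Adgrg6 did not, since fewer than 5% of the classed cells had a count, and its values are described separately.

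In arterial-marker cells 2 receptors lay below the level of the capillary-marker cells in every set, and the other 3 tested did not. The 2 were Adgrl2 and Adgrl4. Neither difference passed the adjusted threshold of 0.05.

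Adgrl2 had 10.1, 24.98 and 10.3 CPM in arterial-marker cells of Young1, Young2 and AY_Y3, against 66.2, 84.4 and 99.97 CPM in capillary-marker cells. The highest arterial-marker value was thus below the lowest capillary-marker value. The fitted log2 fold change was -2.57 ± 0.45 (SE; 95% interval -3.62 to -1.52) with an adjusted p of 0.0659 (edgeR). Adgrl2 was found in 2 of 22, 9 of 48 and 2 of 41 arterial-marker cells, or 11.7% of them in all, and in 30.6% of capillary-marker cells. A list of 8 astrocyte markers summed to 74.2 to 247.2 CPM in arterial-marker and 204.9 to 502 CPM in capillary-marker cells. Without the cells highest in astrocyte and oligodendrocyte markers the log2 fold change was -2.49 ± 0.46 (adjusted p = 0.0936, edgeR). The part of such transcripts in the result was not tested.

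Adgrl4 had 222.01, 659 and 527 CPM in arterial-marker cells of Young1, Young2 and AY_Y3, against 707, 1047 and 1014 CPM in capillary-marker cells. Its groups did not overlap either, although the Young2 value in arterial-marker cells came close to the Young1 value in capillary-marker cells. The log2 fold change was -1.08 ± 0.21 (95% interval -1.57 to -0.59) with an adjusted p of 0.0942 (edgeR). Unlike Adgrl2, it was still found in most arterial-marker cells, 82.9% of them, against 93.7% of capillary-marker cells.

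Adgrf5, Adgrg1 and Adgra2 overlapped between arterial-marker and capillary-marker cells. Adgrf5 had 988, 1393 and 914 CPM in arterial-marker cells and 923, 1145 and 826 CPM in capillary-marker cells, each set slightly higher in the arterial-marker class, with a log2 fold change of 0.17 ± 0.15 and an adjusted p of 0.824 (edgeR). Adgrg1 had 391, 237.7 and 302 CPM against 265, 308 and 380 CPM, higher in Young1 and lower in the other two sets. Its log2 fold change was -0.05 ± 0.25 (95% interval -0.63 to 0.53).

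Adgra2 had 0.885, 31.4 and 37.7 CPM in arterial-marker cells, against 22.4, 28.999 and 46.03 CPM in capillary-marker cells. The Young1 value in arterial-marker cells rested on 17 counts in 4 of 22 cells. The interval of its log2 fold change, -3.60 to 1.86, holds differences of several-fold in either direction.

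Of the 5 receptors tested, 0 passed between arterial-marker and capillary-marker cells, where 0.502% of all genes did (46 of 9159). At an unadjusted p under 0.05 there were 2, Adgrl2 and Adgrl4, where 881 of the 9159 genes were. With DESeq2, with limma on mean log2 values and after thinning, both passed. Of all genes, 8.78% had all 3 arterial-marker values below all 3 capillary-marker values, as 2 of these 5 did.

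Between venous-marker and capillary-marker cells the summed levels of the common receptors overlapped. Adgrl4 had 726, 1014 and 1111 CPM in venous-marker cells of Young1, Young2 and AY_Y3, against the capillary-marker values given above, with a log2 fold change of -0.00 ± 0.21 (95% interval -0.49 to 0.48). Adgrf5 had 948, 932 and 911 CPM in venous-marker cells, the narrowest class range of this gene (931 ± 18.5 CPM, SD, n = 3 sets), and a log2 fold change of -0.08 ± 0.15. Adgrg1 had 319, 336 and 295 CPM in venous-marker cells and a log2 fold change of -0.05 ± 0.25. The share of cells with an Adgrg1 count was 86.001 ± 5.69% in venous-marker and 70.7 ± 8.70% in capillary-marker cells (SD, n = 3 sets). With the cells of all sets pooled it was 85.6% (95% interval 78.4 to 91.1) and 71.6% (65.8 to 76.96). After thinning the pooled shares were 80.3% and 67.5%. The pooled intervals leave out the spread between sets, and the difference in shares was not tested. By Nr2f2 alone, the shares in Young1, Young2 and AY_Y3 were 91.9%, 86.3% and 79.6% with the marker. Without it they were 71.1%, 65.7% and 79.5%, so AY_Y3 was nearly equal. The median cell had 262.9 CPM of Adgrg1 in the venous-marker class and 139.6 CPM in the capillary-marker class.

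Adgrl2 had 68.1, 122.5 and 109.2 CPM in venous-marker cells, against 66.2, 84.4 and 99.97 CPM in capillary-marker cells. Each set was higher in the venous-marker class, by little in Young1 and AY_Y3, and the log2 fold change was 0.17 ± 0.42 (95% interval -0.81 to 1.15). The share of cells with a count, as mean ± SD over the sets, was 45.8 ± 11.1% in venous-marker and 30.4 ± 5.23% in capillary-marker cells. With the cells of all sets pooled it was 46.2% and 30.6%. After thinning the shares were 38.6% and 23.9%. A median of 2267 genes per thinned venous-marker cell, against 1552 per thinned capillary-marker cell, moved with the shares of Adgrl2 and Adgrg1, and its part in the results was not tested.

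Adgra2 was the 1 receptor whose venous-marker values, 16.7, 19.03 and 12.9 CPM, lay below all capillary-marker values, at 22.4, 28.999 and 46.03 CPM. Of all genes 6.06% did so, and its log2 fold change of -0.87 had a 95% interval of -3.48 to 1.73. The shares of cells with a count ran the other way, at 21.2% of venous-marker and 15.7% of capillary-marker cells, so no order is read from them. Of the 5 receptors tested, 0 passed in this comparison, and 0.0% of all genes did (edgeR). At an unadjusted p under 0.05 were 0 of the 5 and 418 of the 9159 genes. DESeq2 called 0 of the 5 and 220 of the 9159 genes. With limma on mean log2 values 1 was called, Adgrl2 (adjusted p = 0.0453). That fit called 903 of the 9159 genes, 891 of them higher, and its median over all genes was 0.40.

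**Figure D2:**
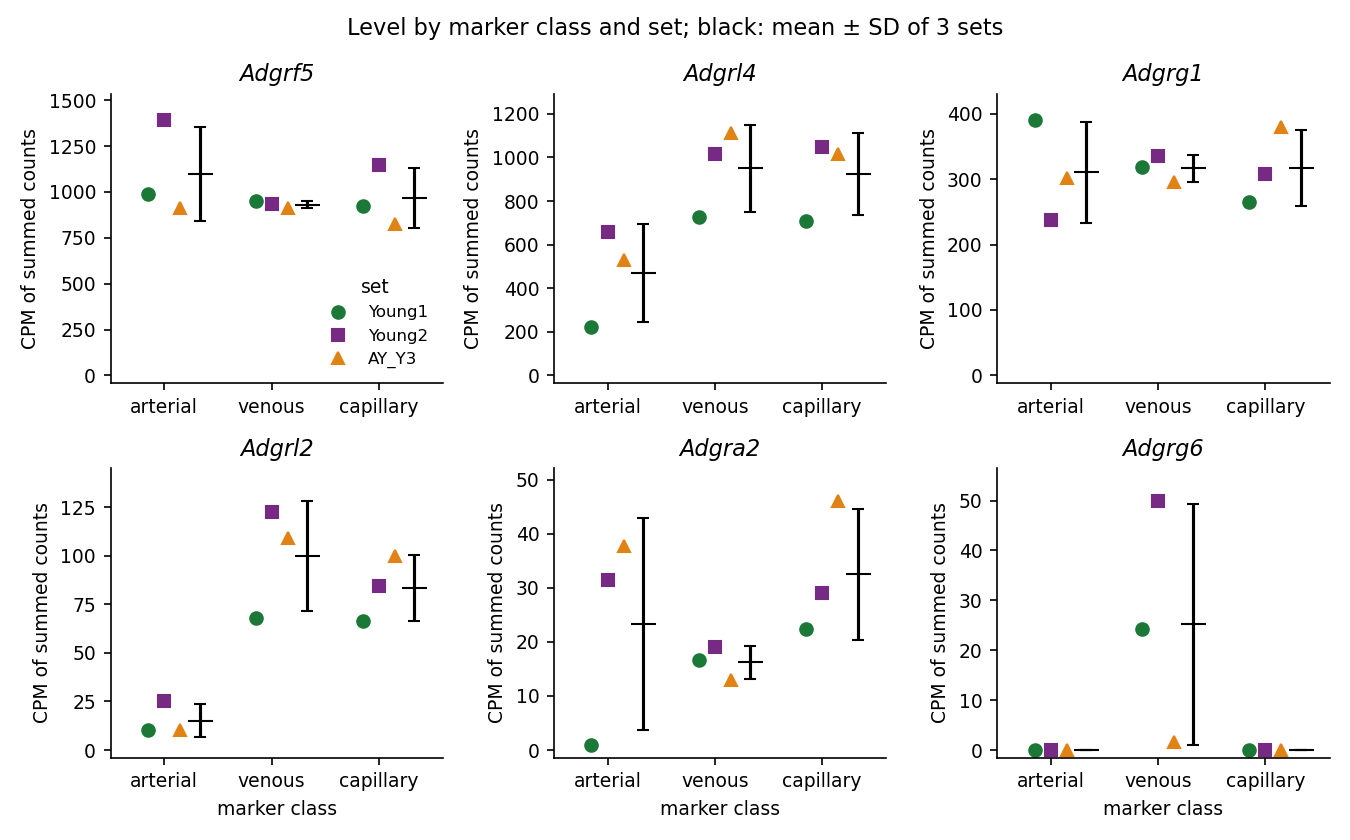
CPM of the summed counts of each receptor (y axis) in arterial-marker, venous-marker and capillary-marker cells (x axis) of Young1, Young2 and AY_Y3 (coloured points), with the mean ± SD of the 3 sets in black. The arterial-marker points of Adgrl2 (at most 24.98 CPM) and Adgrl4 (at most 659 CPM) lie below those of the other classes, and Adgrg6 is above 1 CPM in the venous-marker cells of all 3 sets and in no other class.

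The arterial and venous ends differed in Adgrl2. Adgrl2, the teneurin and FLRT receptor, was lower in arterial-marker than in venous-marker cells, with 10.1, 24.98 and 10.3 CPM in arterial-marker cells of Young1, Young2 and AY_Y3 against 68.1, 122.5 and 109.2 CPM in venous-marker cells. The values did not overlap. The log2 fold change was -2.74 ± 0.45 (95% interval -3.80 to -1.68) with an adjusted p of 0.0328 (edgeR), which made it 1 of 5 receptors called lower, where 0.786% of all genes were.

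Adgrl4 had 222.01, 659 and 527 CPM in arterial-marker cells and 726, 1014 and 1111 CPM in venous-marker cells. Its groups did not overlap, and its log2 fold change of -1.08 ± 0.21 had an adjusted p of 0.0592 (edgeR). In the lower direction 11.1% of all genes had such non-overlapping sets, as Adgrl2 and Adgrl4 did. Adgrf5 was at 988, 1393 and 914 CPM in arterial-marker cells and at 948, 932 and 911 CPM in venous-marker cells, a log2 fold change of 0.25 ± 0.15 (adjusted p = 0.597, edgeR). For Adgrg1 the log2 fold change was -0.00 ± 0.24, and for Adgra2 0.00 ± 1.40.

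The Adgrl2 call rested on all 3 sets. Without Young1, Young2 or AY_Y3 its adjusted p was 0.145, 0.235 or 0.346 (edgeR) at log2 fold changes of -2.77, -3.02 and -2.45, and a margin of 1 (adjusted p = 0.116), the wider marker lists (0.166), leaving out mural-high cells (0.165) or no filter on low counts (0.0867) also ended it. Markers of other cells moved with the classes: 10 pericyte markers summed to 41.8 to 434 CPM in arterial-marker, 640 to 877 CPM in venous-marker and 341 to 465 CPM in capillary-marker cells, and 6 smooth muscle markers to 193.01 to 631, 9.5 to 541 and 13.7 to 28.7 CPM. Of these 10 pericyte markers 4 (Kcnj8, Abcc9, Atp13a5 and Anpep) were at 0 in arterial-marker, 2 in capillary-marker and 0 in venous-marker cells. Without the mural-high cells the Adgrl2 log2 fold change was -3.05 ± 0.79, and with them -2.74 ± 0.45. The part of mural transcripts in the result was not tested.

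**Figure D3:**
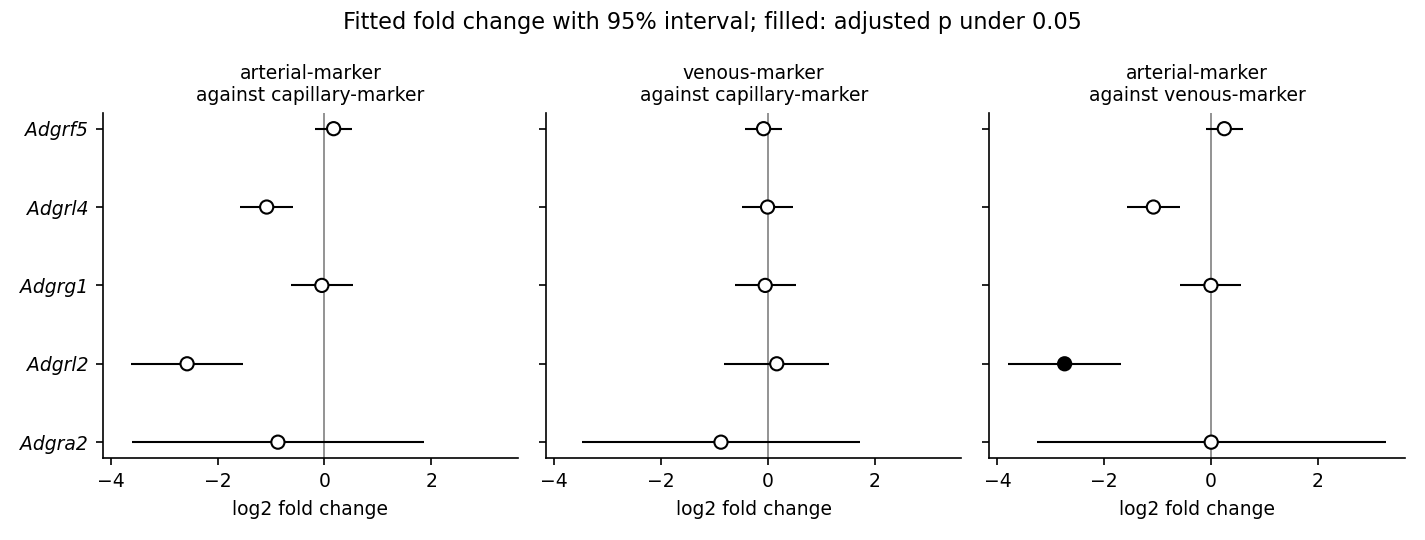
Fitted log2 fold changes (points, x axis) with 95% intervals (lines) of the 5 receptors tested, in the 3 comparisons of marker classes; filled points have an adjusted p under 0.05. Adgrl2 against venous-marker cells (-2.74) is the filled point, and the intervals of Adgrl2 and Adgrl4 stay below 0 in both panels that involve arterial-marker cells.

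Adgrg6 transcripts came mostly from venous-marker cells. Of 2839 Adgrg6 counts in endothelial cells, 2835 were in venous-marker cells, 0 in arterial-marker, 1 in capillary-marker and 3 in cells between classes. By set, venous-marker cells had 24.2 CPM in Young1, 49.8 CPM in Young2 and 1.52 CPM in AY_Y3, the last far below the other two sets. Arterial-marker cells had 0 CPM in each set, where 3 counts would be 0.156, 0.0896 and 0.129 CPM. In 11.1% of the 9159 genes tested, which leave out Adgrg6, all arterial-marker values lay below all venous-marker values. Thinned venous-marker cells also had more genes, a median of 2267 against 1878 in arterial-marker and 1552 in capillary-marker cells. The part of this in the Adgrg6 values was not tested.

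The share of cells with a count was 5.13%, 26.7% and 8.33% in venous-marker cells of the 3 sets. Among arterial-marker cells it was 0 of 22, 0 of 48 and 0 of 41, with exact 95% upper limits of 15.4%, 7.40% and 8.60% on the share of cells with a count. In capillary-marker cells it was 0 of 86, 0 of 76 and, in AY_Y3, 1 cell (0.943%). The exact 95% intervals of venous-marker and arterial-marker cells were apart in Young2 (14.6 to 41.9% and 0 to 7.40%) and overlapped in Young1 and AY_Y3.

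A few cells carried most of the signal. Of the 21 endothelial cells with a count, 11 had 10 or more counts, and all 11 were venous-marker cells: 2 of Young1, 8 of Young2 and 1 of AY_Y3. Their levels were 1332, 849, 467, 303, 224.8, 189.1, 183.6, 169.8, 44.2, 28.5 and 21.6 CPM. The venous class rests on Nr2f2 and Il1r1, so a split by these markers repeats it. With the sets pooled, 15 of the 76 cells with both markers (19.7%) had an Adgrg6 count. It was found in 4 cells (3.67%) with exactly 1 of them and in 2 of the 535 with neither (0.374%). Of the 21 positive cells 13 were of Young2. All 21 also held Adgrl4 and Adgrf5, 17 held Adgrg1 and 10 held Adgrl2.

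Because Adgrg6 failed the filter, its test exists with no filter on low counts, where arterial-marker against venous-marker cells had an adjusted p of 0.463, and with the wider marker lists, where it was 0.317 (edgeR). Neither passed. In the unfiltered fit the unadjusted p was 0.0113 (edgeR), where 1349 of 19331 genes were under 0.05. Venous-marker against capillary-marker cells passed in neither fit. There the adjusted p was 0.489 with the wider lists (edgeR). With no filter the unadjusted p was 0.0189 (edgeR), where 661 of 19331 genes were under 0.05.

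Cells were also compared by the arterial minus venous score itself. In Young1, Young2 and AY_Y3, 65.4%, 50.6% and 53.1% of cells had no count of any of the 4 arterial and venous markers and so shared 1 score, which gives them no order among themselves. They were kept as 1 group between the cells on the venous and those on the arterial side of that score. On the venous side Adgrl2 averaged 138.2, 93.2 and 112.3 CPM per cell in the 3 sets, in cells with no marker 59.97, 80.5 and 80.04 CPM, and on the arterial side 16.8, 27.1 and 17.4 CPM. The means of the 3 groups were 114.6 ± 22.6, 73.5 ± 11.7 and 20.4 ± 5.79 CPM (SD, n = 3 sets). How many of all genes have such an order was not computed. The sides rest on the same 4 markers as the arterial and venous scores.

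Adgrl4 averaged 962 ± 209.5 CPM on the venous side, 890 ± 239.2 CPM in cells with no marker and 562 ± 209.15 CPM on the arterial side, which was the lowest group in every set, although groups overlapped between sets. Adgra2 was highest in cells with no marker in every set, at 34.02 ± 12.9 CPM between 16.1 ± 4.54 CPM on the venous and 22.9 ± 8.89 CPM on the arterial side. Its detection went the other way, at 15.2 ± 2.07% of cells with no marker, 20.6 ± 4.98% on the venous and 22.5 ± 5.16% on the arterial side. No order is therefore read from these values. Adgrf5 ran over 929, 932 and 1143 CPM and Adgrg1 stayed within 313 to 332 CPM. Adgrg6 had 21.95 ± 22.6 CPM on the venous side, 0.0073 CPM in cells with no marker and 0 CPM on the arterial side. These are descriptions of cells grouped by markers, with no test.

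**Figure D4:**
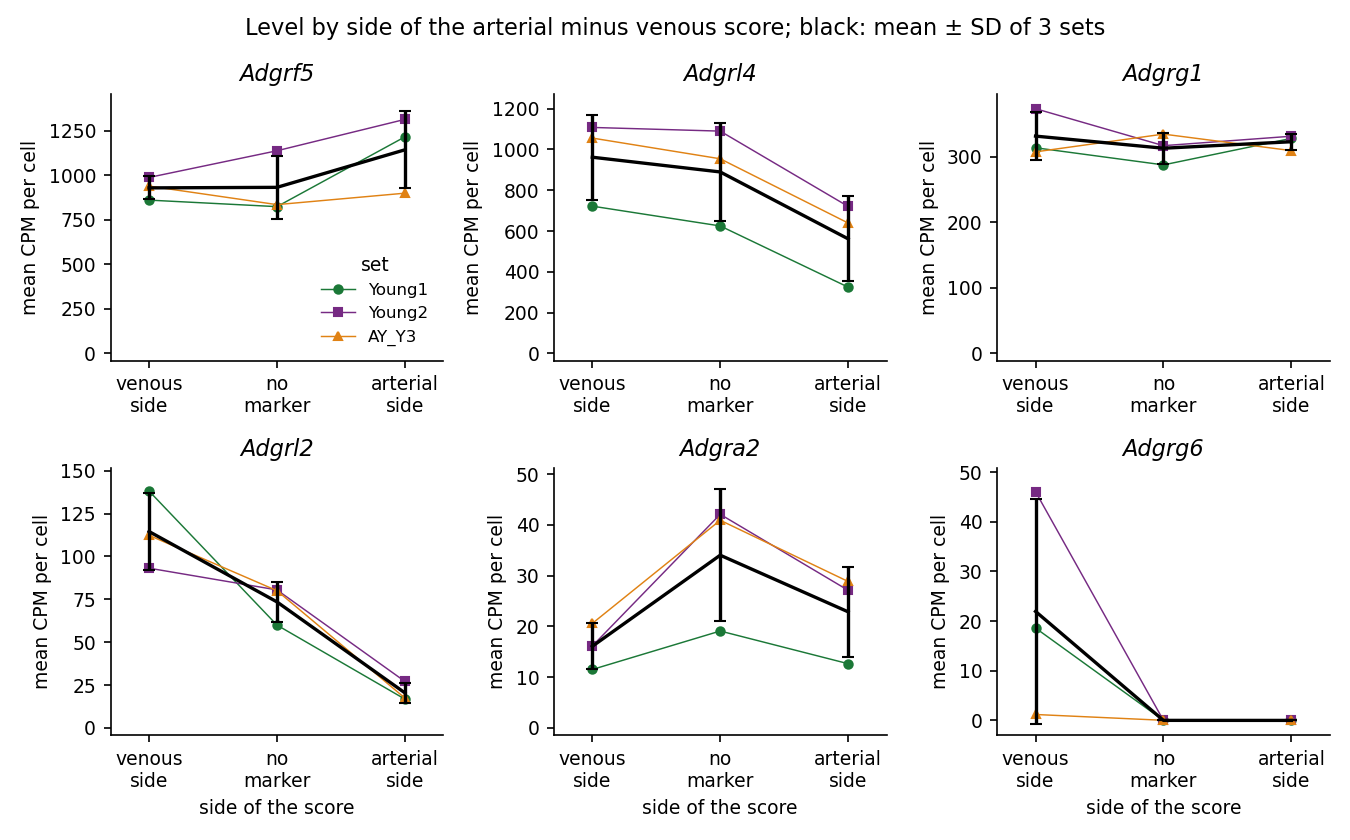
Mean CPM per cell of each receptor (y axis) in cells on the venous side of the arterial minus venous score, cells with none of the 4 markers and cells on the arterial side (x axis), as coloured lines for Young1, Young2 and AY_Y3 and in black as the mean ± SD of the 3 sets. Adgrl2 stands at 114.6, 73.5 and 20.4 CPM in that order, Adgrl4 is lowest on the arterial side at 562 CPM, and Adgrg6 is found almost wholly on the venous side.

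Across single cells, the Pearson correlations of log2(CPM + 1) with the scores were weak (720 cells, correlated within each set), and cells of a set share their preparation and its depth. The mean over sets for Adgrl2 was -0.11 with the arterial, 0.20 with the venous and 0.05 with the capillary score. For Adgrl4 it was -0.11, 0.15 and 0.20. Adgrg6 had 0.31 with the venous score, over a range of 0.15 to 0.48 between sets, and -0.12 with the capillary score. Adgrf5, Adgrg1 and Adgra2 stayed between -0.05 and 0.11 with each score.

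By single markers the receptors differed in how far sets went the same way. Of the 720 cells, those with Bmx averaged 31.4 CPM of Adgrl2, against 82.99 CPM in the 568 cells without it, and 656 against 903 CPM of Adgrl4, both lower in every set. Adgrl2 averaged 113.5 CPM in cells with Nr2f2, against 62.4 CPM in the 583 without, and was higher in every set. By Il1r1 it was 99.3 against 66.4 CPM, with nearly equal values in Young1 (71.98 against 71.88 CPM). Cells with Cxcl12, a chemokine of capillary endothelium, averaged 884 CPM of Adgrl4 and the 84 cells without it 606 CPM. With Rgcc, the other capillary marker, Adgrl4 was at 908 CPM, against 732 CPM without, but Young1 ran the other way at 603 against 620 CPM.

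Adgra2 was found in 39.7% of the 58 cells with Gkn3, against 16.3% of the 662 cells without it, at 41.6 against 26.6 CPM. In Young1 its level ran the other way, at 1.74 CPM in cells with Gkn3 against 17.3 CPM without, and in the class comparison its arterial-marker and capillary-marker values overlapped. Adgrg6 was found in 3.95% of cells with Bmx and 2.64% of cells without, at 5.84 and 5.25 CPM. Of the 21 cells with an Adgrg6 count 6 carried Bmx or Gkn3, while 0 of the 58 cells with Gkn3 had one, against 3.17% of those without. These 6 were venous-marker cells with 0.921 to 33.3 CPM of Bmx. Arterial-marker cells had a mean of 255.5 ± 27.4 CPM of Bmx per cell (SD, n = 3 sets).

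Most cells held several of the receptors. Of 720 cells 307 (42.6%) had counts of 3 members, 26.7% of 4, 20.1% of 2, 5.83% of 5 and 3.89% of 1. All 6 were found in 4 cells and none in 2. Adgrf5 and Adgrl4 were found together in 87.2% of cells on average over the sets, Adgrf5 and Adgrg1 in 71.98%, and Adgrl4 and Adgrg1 in 69.3%.

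Levels of the members were nearly unrelated from cell to cell. The highest of the 15 mean correlations was that of Adgrl4 with Adgrl2, at 0.19 (0.18, 0.26 and 0.12 in Young1, Young2 and AY_Y3). Next came Adgrf5 with Adgra2 at 0.12 and Adgra2 with Adgrg6 at 0.11. The last ranged from -0.01 to 0.30 between sets and rested on 2, 3 and 3 cells with both. Correlations of this size in sparse counts are given as values only.

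**Figure D5:**
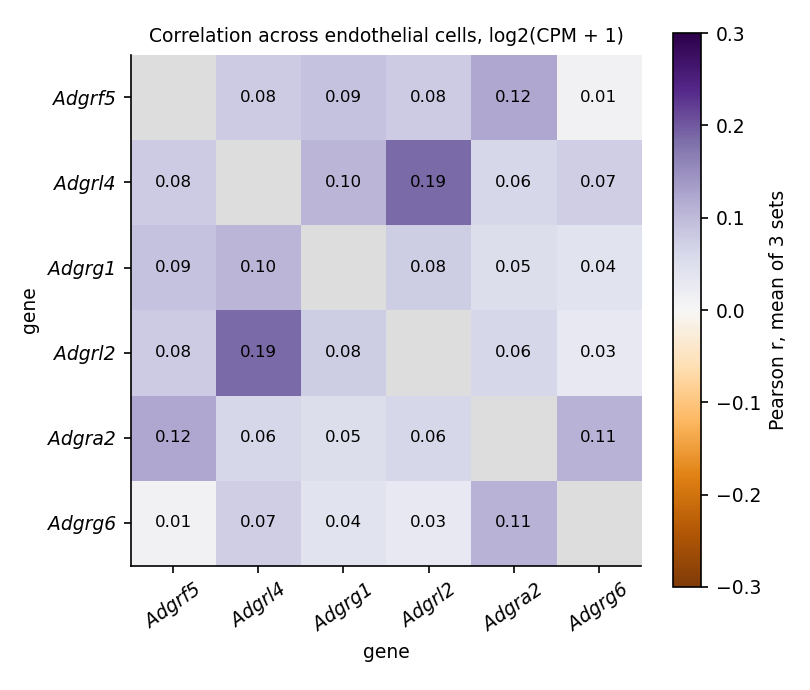
Pearson correlation of log2(CPM + 1) between each pair of receptors across endothelial cells, as the mean of the 3 sets (colour and printed value; diagonal left grey). All 15 values lie between 0.01 and 0.19, the highest being Adgrl4 with Adgrl2.

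Among 6072 genes found in at least 10% of the cells of every set, those most like each receptor by mean Pearson correlation over the 3 sets were as follows. Adgrl4 was closest to Slco1a4 (0.35), an organic anion transporter of the barrier, Pglyrp1 (0.31) and Slco1c1 (0.30), a thyroid hormone transporter. Adgrl2 was closest to Slc16a1 (0.23), a monocarboxylate transporter, Stap2 (0.22) and Slc38a5 (0.22), an amino acid transporter on the venous marker list. For Adgrg6 the genes given are Il1r1 (0.31), which is in the venous score, and Fmnl2 (0.26).

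For the remaining 3 the closest genes were weaker. Adgrf5 had Lars2 (0.20), Golim4 (0.19) and Fam120a (0.18), and that of Lars2 ranged from 0.05 in Young1 to 0.35 in AY_Y3. Adgrg1 had Nr3c1 (0.19), the glucocorticoid receptor, Btg2 (0.18) and Pkm (0.18). Adgra2 had Pik3c3 (0.16), Wbscr22 (0.15) and Rps6ka4 (0.14).

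Partners of the receptors were read from a list of 22 ligands and co-receptors, of which 21 were in the table and 10 were tested. Between arterial-marker and capillary-marker cells 1 was lower and 0 were higher, where 0.36% of all genes were lower, and the list's median log2 fold change was 0.01 beside -0.07 for all genes. In arterial-marker against venous-marker cells 2 were lower and 0 higher, where 0.786% of all genes were lower, with a median of -0.41 beside -0.06. Venous-marker and capillary-marker cells differed in 0 of the 10 (edgeR), with 3 at an unadjusted p under 0.05, where 418 of all 9159 genes were.

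Flrt2, a ligand of latrophilins, was the partner lower in both. It had 0.208, 0.0299 and 0.0428 CPM in arterial-marker cells of Young1, Young2 and AY_Y3 (6 counts in all), against 152.4, 311 and 130.3 CPM in venous-marker cells and 13.7, 79.5 and 26.4 CPM in capillary-marker cells. Its adjusted p was 0.00745 against venous-marker and 0.0184 against capillary-marker cells (edgeR), and with so few arterial-marker counts its fitted fold is not given. Flrt2 is also on the wider venous marker list. Without Young2 or AY_Y3 it passed neither comparison, with adjusted p of 0.148 and 0.138 against venous-marker cells and 0.325 and 0.339 against capillary-marker cells.

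Tgm2, the transglutaminase bound by Adgrg1, had 439, 362 and 606 CPM in arterial-marker cells, against 1453, 2005 and 1549 CPM in venous-marker cells, a log2 fold change of -1.82 ± 0.22 (adjusted p = 0.00998, edgeR). The groups lay well apart, yet without Young1, Young2 or AY_Y3 the adjusted p was 0.0830, 0.153 or 0.124. Adgrg1 itself did not differ beyond its spread between these classes. Wnt7a and Wnt7b were at 0 CPM in all 9 sums. Reck, the partner of Adgra2, had 84.8, 104.5 and 132.7 CPM in arterial-marker, 114.4, 122.2 and 43.7 CPM in venous-marker and 82.7, 88.7 and 56.6 CPM in capillary-marker cells, and these ranges overlapped.

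Wnt and barrier genes downstream of Adgra2 were read from a list of 17, of which 16 were tested. Arterial-marker cells had 2 lower and 0 higher against capillary-marker cells, and 2 lower and 0 higher against venous-marker cells, where 0.36% and 0.786% of all genes were lower; the medians were -0.47 and -0.45 beside -0.07 and -0.06 for all genes. The same 2 genes were named in both, Apcdd1 and Nkd1, which are targets and inhibitors of Wnt signalling. The 2 comparisons share the arterial-marker sums. Between venous-marker and capillary-marker cells 0 passed (edgeR), with 2 at an unadjusted p under 0.05, where 418 of all 9159 genes were.

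Apcdd1 had 34.1, 25.2 and 40.6 CPM in arterial-marker cells, against 220.6, 203.6 and 261.7 CPM in venous-marker and 137.2, 238.02 and 210.8 CPM in capillary-marker cells. Its log2 fold changes were -2.74 ± 0.31 (adjusted p = 0.00851, edgeR) and -2.56 ± 0.31 (adjusted p = 0.0203). Nkd1 had 83.4, 61.3 and 67.98 CPM in arterial-marker cells, against 515, 346 and 398 CPM in venous-marker and 214.2, 288 and 333 CPM in capillary-marker cells, with log2 fold changes of -2.52 ± 0.27 (adjusted p = 0.00817) and -1.99 ± 0.27 (adjusted p = 0.0290). Arterial-marker values of both genes lay below all others.

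Leaving out a set weakened these calls too, as it did over all genes. Against capillary-marker cells, calls over all genes fell from 46 to 11, 2 and 1 without Young1, Young2 and AY_Y3. Against capillary-marker cells neither gene passed without Young1 (adjusted p = 0.0671 for Apcdd1 and 0.0517 for Nkd1, edgeR), Young2 (0.325 and 0.379) or AY_Y3 (0.341 and 0.404). Against venous-marker cells both passed without Young1 (0.0456 and 0.0229), but not without Young2 (0.153 and 0.194) or AY_Y3 (0.160 and 0.141).

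G proteins and effectors, on a list of 27 of which 23 were tested, gave 0 calls in each of the 3 comparisons (edgeR), with 1, 2 and 2 at an unadjusted p under 0.05 for arterial-marker against capillary-marker, venous-marker against capillary-marker and arterial-marker against venous-marker cells. Their median log2 fold changes were -0.09, -0.05 and 0.10. Of all 9159 genes 881, 418 and 1086 were at an unadjusted p under 0.05 in that order of comparisons. The 3 other adhesion receptors tested, Adgre5, Adgrl3 and Adgra3, also gave 0 calls in each and 0 at an unadjusted p under 0.05. Adgre5 had 164.6, 219.6 and 257.5 CPM in arterial-marker, 247.8, 212.3 and 243.2 CPM in venous-marker and 296, 205.5 and 248.98 CPM in capillary-marker cells, which overlap. Adgrl3 had 0, 9.29 and 0 CPM in arterial-marker cells, against 7.57, 15.04 and 2.04 CPM in venous-marker and 18.4, 5.14 and 20.96 CPM in capillary-marker cells.

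Other endothelial GPCRs formed a list of 25, of which 11 were tested. Arterial-marker cells had 2 higher and 0 lower against venous-marker cells, where 0.775% of all genes were higher, and 0 calls against capillary-marker cells (edgeR, 2 at an unadjusted p under 0.05). Venous-marker against capillary-marker cells gave 0, with 4 at an unadjusted p under 0.05. Against capillary-marker cells, 881 of all 9159 genes were at such a p for arterial-marker and 418 for venous-marker cells. The median log2 fold change was 0.17 for arterial-marker against capillary-marker, -0.03 for venous-marker against capillary-marker and 0.20 for arterial-marker against venous-marker cells.

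S1pr1, the sphingosine-1-phosphate receptor that steadies endothelial junctions, had 2135, 1933 and 1827 CPM in arterial-marker cells, against 1038, 824 and 1046 CPM in venous-marker cells (log2 fold change 1.06 ± 0.14, adjusted p = 0.0136, edgeR). Gprc5b had 44.1, 26.5 and 21.5 CPM in arterial-marker cells, against 1 count in the venous-marker cells of Young2 and 0 in those of Young1 and AY_Y3 (adjusted p = 0.0153). Both therefore ran opposite in direction to Adgrl2 between these classes. Without Young1, Young2 or AY_Y3 the adjusted p was 0.102, 0.217 or 0.131 for S1pr1 and 0.0830, 0.229 or 0.218 for Gprc5b.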

How the data were processed

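The values were whole-number read counts per gene and cell, as deposited by the authors, with no normalization; Bowtie 0.12.2 and the builds mm8 and mm10 are named, per the submitters' processing notes, with no role given. No source used here names the counter, the annotation or the use of strand. The 6 receptors, the marker pairs and the gene lists were chosen with earlier results of these data known.

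All 745 cells (225 of Young1, 258 of Young2 and 262 of AY_Y3) had at least 500 genes and 50000 counts. They were clustered (2000 variable genes, 10 principal components, 15 neighbours, Leiden resolution 1; scanpy 1.11.5, leidenalg 0.10.2), and a cluster with at least 3 markers of another cell type at 3 times their level in the other cells, each with a count in at least 25% of its cells, was left out. No doublet caller was run; as alternatives, the endothelial cells with the most mural markers (37 cells) and, chosen after seeing the data, the most astrocyte and oligodendrocyte markers (37 cells) were left out.

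CPM were computed from all counts of a cell or sum. Counts were summed per set and marker class; the 9 sums, over 111 arterial-marker, 132 venous-marker and 268 capillary-marker cells, held 19201577 to 72868060 counts. They were fitted with edgeR 4.0.16 (R 4.3.3; quasi-likelihood, TMM, set as block, 4 residual degrees of freedom). Genes needed edgeR's default filter and a count in 5% of the classed cells, and the 6 class markers were left out. The test was tried on simulated counts. The SE is the fold change divided by the square root of F. Exon lengths are merged exons of GENCODE M21. Alternatives were DESeq2 1.42.0, limma 3.58.1 on mean log2(CPM + 1), other margins and marker lists, thinning, no filter, no block and each set left out.

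Text genes were the 6 members, the 3 genes most correlated with each (1 of those for Adgrg6 is not reported here), list genes past an adjusted p of 0.05 (at most 4 a list and comparison) and other adhesion receptors in at least 5% of cells. Grouping by the side of the arterial minus venous score was chosen after seeing the data, in place of quintiles, which cut through tied cells. The partners Wnt7a, Wnt7b and Reck were named after their values were seen.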

Additional observations from a re-analysis of the deposited data

How the results depend on the processing

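Between arterial-marker and capillary-marker cells, 0.502% of genes (13 higher, 33 lower) and 0 of 5 receptors passed. The share of genes was 0.318% without glia-high cells (an alternative chosen after seeing the data), 2.16% after thinning, 8.28% with DESeq2 (328 higher, 430 lower), 6.40% with limma (466 higher, 120 lower), 0.155% with no filter on low counts, 0.0109 to 0.12% with a set left out and 0.884% with no replicate block. Receptors passing were 1 at a class margin of 0 and 2 after thinning, with DESeq2 and with limma. Between venous-marker and capillary-marker cells 0.0% of genes passed, against 0.0111% without mural-high cells, 0.206% after thinning, 2.40% with DESeq2 and 9.86% with limma, which called 1 receptor. Between arterial-marker and venous-marker cells 1.56% of genes (71 higher, 72 lower) and 1 receptor passed. The share was 0.786% at a margin of 1, 0.567% with the wider marker lists, 3.58% after thinning, 11.2% with DESeq2, 9.78% with limma (641 lower of 896), 0.383% with no filter, 0.0327 to 0.491% with a set left out and 1.77% with no replicate block. Receptors passing were 2 at a margin of 0, after thinning, with DESeq2 and with limma, and 0 at a margin of 1, with the wider lists, without mural-high cells, with no filter and with any set left out. The limma values shifted the median of all genes to 0.18, 0.40 and -0.19 in the 3 comparisons, and no filter to -0.25, -0.10 and -0.13. Deviations of same-set sums were weakly correlated, at -0.005 to 0.054, beside -0.041 to 0.016 for sums of different sets.

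The signs that turned were of receptors not called by edgeR in the comparison concerned. For Adgrg1, arterial-marker against capillary-marker cells, the log2 fold change was 0.045 at a margin of 0, 0.057 at a margin of 1, 0.068 with the wider lists, 0.011 without mural-high cells, 0.0087 after thinning, 1.11 with limma and -0.38 to 0.13 with a set left out. For Adgra2 it was 0.35 at a margin of 1, 0.55 with the wider lists and 0.16 with limma. In venous-marker against capillary-marker cells Adgrf5 had 0.073 at a margin of 1, 0.47 with limma and -0.17 to 0.056 with a set left out. Adgrl4 had 0.021 at a margin of 1, 0.0081 without mural-high cells, 0.055 after thinning, 0.0075 with DESeq2, 0.36 with limma, 0.0015 with no replicate block and -0.047 to 0.047 with a set left out. Adgrg1 had 0.11 at a margin of 1, 0.18 with the wider lists, 1.20 with limma and -0.16 to 0.14 with a set left out. Adgrl2, called with limma, had -0.21 with the wider lists, and Adgra2 had 1.86 at a margin of 1 and 0.12 with limma. In arterial-marker against venous-marker cells Adgrg1 had 0.053 at a margin of 0, 0.031 without mural-high cells, 0.043 without glia-high cells, 0.0099 with the other wells kept in, 0.028 after thinning, 0.032 with DESeq2, 0.018 with no replicate block and -0.22 to 0.23 with a set left out. Adgra2 had -1.51 at a margin of 1, -0.044 without mural-high cells, -0.53 after thinning and -0.96 to 1.12 with a set left out. The cause was not tested. Adgrl2 and Adgrl4 were below 0 in all 14 alternatives of both comparisons with arterial-marker cells. Of the fold changes of list genes under an alternative, 78 kept their call, 45 lost it and 0 turned sign.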

Other observations

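The 25 wells left out for their pericyte markers, which summed to 23528 CPM there against 461 CPM in endothelial cells, also held the receptors. Adgrf5 was found in 25 of 25 wells at a mean of 663 CPM, Adgrl4 in 22 at 417 CPM and Adgrg1 in 19 at 223.6 CPM. Adgrl2 was found in 6 wells (41.5 CPM) and Adgra2 in 10 (40%, exact 95% interval 21.1 to 61.3%; 23.1 CPM), against 18.2% (15.4 to 21.2%) of the 720 endothelial cells (27.8 CPM) for Adgra2. After thinning these shares were 16% and 13.1%, and no order is read from them. Adgrg6 had 3 counts in 2 wells. Endothelial markers summed to 16335 CPM in these wells, so whether these reads came from pericytes or from attached endothelial cells cannot be told apart.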
